A study of Rattus norvegicus with 58 samples.

Results

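S100a8 (ENSRNOG00000011557), S100a9 (ENSRNOG00000011483) and Lcn2 (ENSRNOG00000013973) are followed here through rat synovium, the lining tissue of joints, over all 10 groups of a study of arthritis and the peptide RTD-1. The 3 genes were taken by identifier from the 16879 genes of the deposited expression table, by a rule that uses no measured value, though with earlier results of these data known, and 3 of 3 passed the filter on low values. RNA from synovial tissue of DA/OlaHsd female rats was sequenced in 58 libraries. Arthritis was induced at 6 to 8 weeks of age with 250 microlitres of pristane, a hydrocarbon oil, and treatment began once both rear limbs were clearly affected (pristane-induced arthritis, PIA). RTD-1, rhesus theta-defensin 1, is a ring-shaped host defence peptide of monkeys, injected under the skin at 5 mg per kg in saline.

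Arthritic rats were sampled untreated (n = 4), after RTD-1 for 1 day (n = 4) or after saline for 1 day (n = 4). Others received RTD-1 for 3 days (n = 8), saline for 3 days (n = 8), RTD-1 for 5 days (n = 8) or saline for 5 days (n = 8). Rats without arthritis had RTD-1 over 3 days (n = 5), RTD-1 over 5 days (n = 5), or no treatment (naive, n = 4). Saline in rats without arthritis is not among the groups analysed here, so RTD-1 and its injection cannot be told apart in healthy rats. The labels do not tie libraries to animals.

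S100a8 and S100a9 are small calcium-binding proteins that pair to form calprotectin, which fills the cytosol of neutrophils and is also made by monocytes. Released calprotectin binds metal ions that microbes need and signals through Toll-like receptor 4, and it is widely used as a marker of joint inflammation. Lcn2 encodes lipocalin-2, a protein of neutrophil specific granules that captures bacterial iron carriers, and it is also made by stimulated macrophages, epithelial cells and other tissue cells. The 3 transcripts can therefore come from the same infiltrating cells or from different ones.

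Between 464693 and 7716834 reads fell in genes per library, and values are given as normalized reads, which are reads scaled to a library of median depth. All 10 healthy RTD-1 libraries and 3 saline libraries (day 1 replicate 2, day 3 replicate 4 and day 5 replicate 1) were deeper than the others. In whole tissue, fewer cells of a type and less RNA per cell cannot be told apart. The markers of synovium and of the cell types it could hold were not analysed here, because the reference table used pairs no identifier of this table with a symbol.

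S100a8 and S100a9 are neighbours in the RefSeq annotation of GRCr8, with 0 genes between them. RefSeq promoter windows were matched for 2 of the 3 genes, S100a9 and Lcn2. The bases before their starts are shown, as both transcripts were higher in untreated PIA than in naive tissue. The sequences below run 5′ to 3′ to the last base before the start, on the minus strand, at chr2:178490623-178490872 for S100a9 and chr3:36081781-36082030 for Lcn2 (RefSeq, GRCr8). Capitals mark the motif matches.
S100a9: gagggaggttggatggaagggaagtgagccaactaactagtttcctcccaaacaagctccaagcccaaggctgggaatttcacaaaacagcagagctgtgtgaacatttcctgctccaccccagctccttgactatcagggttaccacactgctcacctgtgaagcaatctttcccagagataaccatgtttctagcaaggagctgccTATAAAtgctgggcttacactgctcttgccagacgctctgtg
Lcn2: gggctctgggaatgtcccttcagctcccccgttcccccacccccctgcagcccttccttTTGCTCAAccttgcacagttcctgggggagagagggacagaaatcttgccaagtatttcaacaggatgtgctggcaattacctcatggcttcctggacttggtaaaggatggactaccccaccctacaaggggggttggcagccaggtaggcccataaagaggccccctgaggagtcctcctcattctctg
The S100a9 window held the TATA box letters TATAAA, beginning 42 bases before the start, and the Lcn2 window held TTGCTCAA, a match to the C/EBP letters TTGCNNAA, beginning 191 bases before it. The search covered 300 bases around each start on both strands and also looked for GGGNNTTCC (NF-kB), TTCNNNGAA (STAT) and TGANTCA (AP-1), whose letters were not in these windows. The 2 matches did not overlap another motif. Among 33469 promoter windows of the same length, 14.2% held TATAAA, 10.6% TTGCNNAA, 5.92% GGGNNTTCC, 8.87% TTCNNNGAA and 7.33% TGANTCA, so these matches are common.

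The first comparison asked how arthritis changed the 3 transcripts. All 3 rose in untreated PIA over naive synovium, with the larger fitted differences for the calprotectin pair. S100a8 had 28.2, 106.4, 39.0 and 23.0 normalized reads in the PIA libraries, against 0 reads in each of the 4 naive libraries. With 3 reads over the naive group as the limit, 0.727 normalized reads, S100a8 was at least 67.6-fold higher in PIA, and at least 41.4-fold without PIA replicate 2. S100a9 had 251.4, 575.5, 270.8 and 159.2 normalized reads in PIA, against 4.44, 0, 0.998 and 10.4 in naive tissue. Its means were 79.3-fold apart, 57.3-fold without PIA replicate 2 and 173-fold without naive replicate 4. The groups did not overlap for either gene, and replicate 2 was the highest PIA library for both.

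Lcn2 had 19.2, 29.8, 16.7 and 22.1 normalized reads in PIA, against 0.889, 2.88, 0.998 and 12.5 in naive tissue. Naive replicate 4 was high in both Lcn2 and S100a9, at 12 and 10 reads, and still lay below every PIA library. Taken as log2(normalized reads + 1), a scale on which low genes change by less than in truth, PIA minus naive came to 5.38 for S100a8 (SE 0.941, limma Benjamini-Hochberg adjusted p = 8.47e-06). It was 6.40 for S100a9 (SE 0.875, limma adjusted p = 6.80e-08) and 2.58 for Lcn2 (SE 0.696, limma adjusted p = 0.00233). The test called 39.3% of the 13062 genes tested, so a call in this comparison is common, and the shift of the median of all tested genes was 0.28 log2. All 3 calls remained under each alternative run, except that Lcn2 was not tested with a filter of 50 normalized reads.

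The balance of 2 transcripts within a library was taken as the difference of their values of log2(normalized reads + 1), called their log2 ratio here, which at low reads depends on the scaling and on the 1 that is added. The log2 ratio of Lcn2 to S100a9 was -3.65 ± 0.617 in PIA and 0.168 ± 1.43 in naive libraries (SD, n = 4 each), and the groups did not overlap. The difference of -3.82 had a two-sided exact permutation p = 0.0286, the smallest this design allows, and 0.0857 after adjustment over 12 ratio tests. The naive ratios rest on 1 to 12 reads of Lcn2 and 0 to 10 of S100a9, and on the pseudocount. The ratio of S100a8 to S100a9 differed by -1.02 log2 between PIA and naive (exact permutation p = 0.343, adjusted 0.508), where S100a8 was at 0 in naive tissue. That value was -1.61 without naive replicate 4 and -2.05 with a pseudocount of 8.

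**Figure D1:**
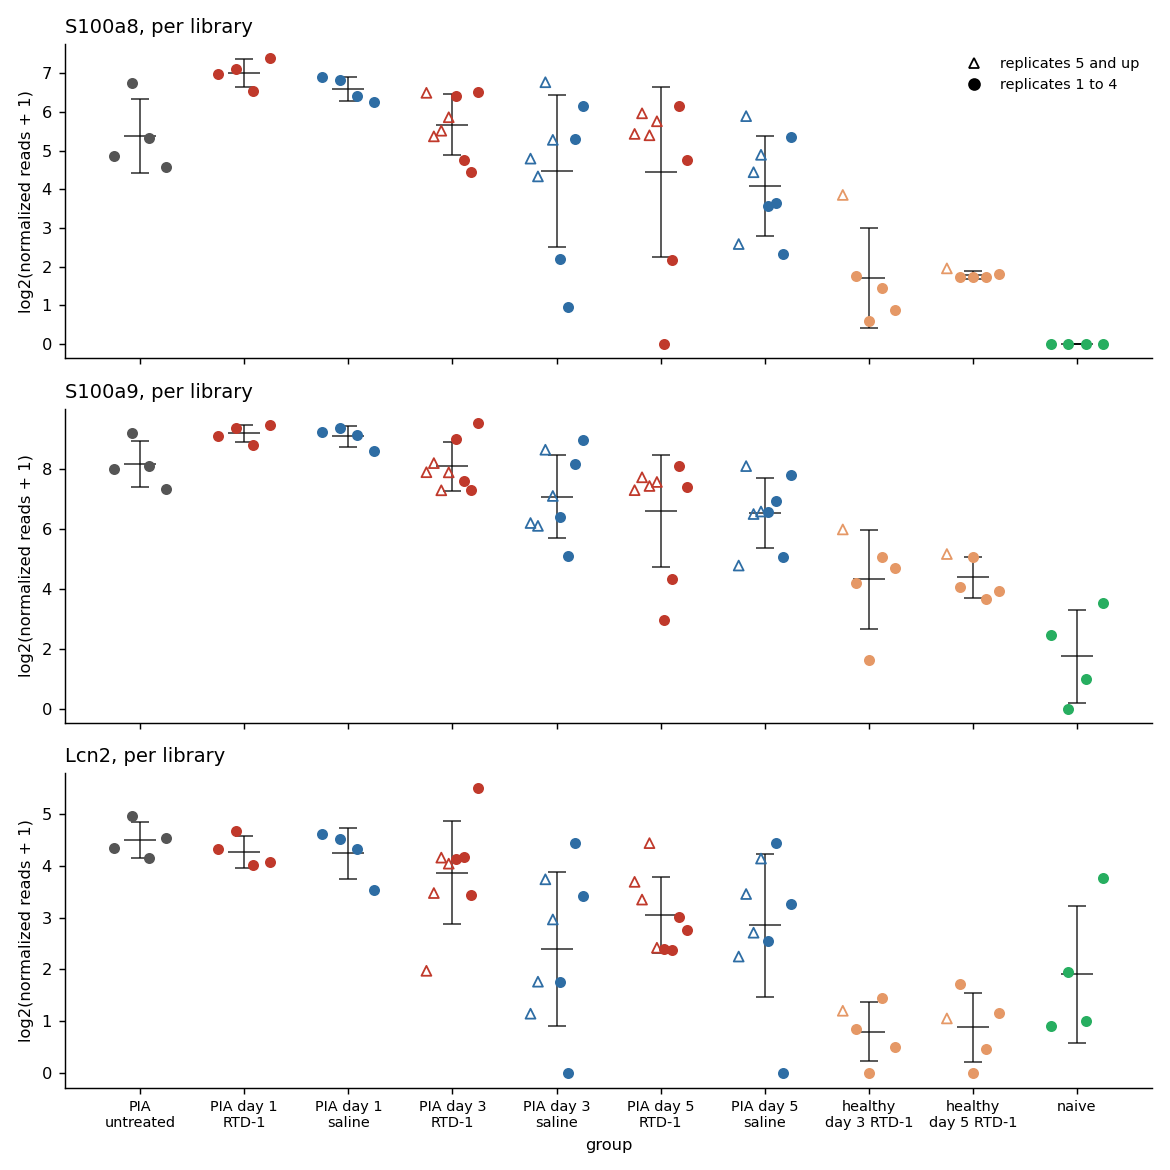
Normalized reads of S100a8, S100a9 and Lcn2 in each of 58 libraries on a log2(normalized reads + 1) axis, by group; black bars are means ± SD of the log2 values, circles are replicates numbered 1 to 4 and triangles those numbered 5 and up. S100a8 and S100a9 were highest after 1 day of treatment in both arms, and for S100a8 the day 3 saline and day 5 RTD-1 groups were the widest.

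RTD-1 was then compared with saline of the same duration. No member passed the test on any day. After 1 day S100a8 had 125.2, 138.3, 92.2 and 166.8 normalized reads with RTD-1, against 118.1, 113.3, 85.1 and 75.3 with saline. S100a9 had 537.8, 655.6, 445.0 and 700.5 with RTD-1, against 591.4, 653.4, 558.8 and 382.6 with saline. The arms overlapped for both genes, and saline replicate 4 was the lowest library in each. Lcn2 had 18.9, 24.3, 15.0 and 15.8 with RTD-1, against 23.4, 21.7, 18.9 and 10.5 with saline, again overlapping.

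The day 1 differences, RTD-1 minus saline, were 0.41 log2 for S100a8 (95% interval -1.49 to 2.30, limma adjusted p = 0.968), 0.10 for S100a9 (-1.66 to 1.86, limma adjusted p = 0.990) and 0.022 for Lcn2 (-1.37 to 1.41, limma adjusted p = 1.00). limma called 0% of the genes tested on that day, with 612 at an unadjusted p under 0.05. limma voom on recovered reads also called 0, with 952 at an unadjusted p under 0.05. These intervals include more than 2-fold changes in either direction, but they use 1 spread per gene fitted over all 10 groups. On day 1 the SD of the log2 values was 0.354 with RTD-1 and 0.313 with saline for S100a8. It was 0.295 and 0.337 for S100a9. For S100a8 it reached 1.97 with saline on day 3 and 2.20 with RTD-1 on day 5.

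On day 3 all 3 members averaged higher with RTD-1 than with saline. S100a8 ran from 20.8 over a median of 51.0 to 91.3 normalized reads with RTD-1, and from 0.933 over 32.3 to 108.2 with saline. S100a9 ran from 154.0 over a median of 233.9 to 733.5 with RTD-1, and from 32.7 over 108.6 to 490.8 with saline. Lcn2 ran from 2.93 over a median of 16.003 to 44.3 with RTD-1, and from 0 over 4.598 to 20.5 with saline. The ranges overlapped for each gene. Saline replicate 2 was the lowest saline library in all 3 genes, and saline replicates 3, 4 and 7 lay above the RTD-1 median of S100a9.

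The largest day 3 difference was that of Lcn2, 1.46 log2 (95% interval 0.47 to 2.44, unadjusted p = 0.00442, limma adjusted p = 0.387), which ranked 147 of 13062 genes by p. S100a8 differed by 1.20 (-0.14 to 2.54, limma adjusted p = 0.688) and S100a9 by 1.00 (-0.24 to 2.25, limma adjusted p = 0.737). This order depended on the pseudocount. With a pseudocount of 8 the Lcn2 difference was 0.72 log2 and lay below that of S100a9, as their log2 ratio then differed by -0.22. The test called 0.00766% of genes on day 3. The 3 differences kept their sign in both sets of replicate numbers. For S100a8, S100a9 and Lcn2 they were 0.52, 0.80 and 1.01 log2 in replicates 5 to 8 and 1.88, 1.20 and 1.91 in replicates 1 to 4, with a lowest limma adjusted p of 0.415. Without any 1 of the 16 libraries the Lcn2 difference lay between 1.11 and 1.75, and its limma adjusted p between 0.138 and 0.762.

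On day 5 the arms overlapped for all 3 genes. S100a8 ran from 0 over a median of 41.7 to 70.3 normalized reads with RTD-1, and from 3.98 over 16.2 to 58.5 with saline. S100a9 ran from 6.83 over a median of 168.9 to 272.8 with RTD-1, and from 26.3 over 92.9 to 269.9 with saline. Lcn2 ran from 4.21 over a median of 6.42 to 20.6 with RTD-1, and from 0 over 7.04 to 20.5 with saline. RTD-1 replicates 1 and 2 set the lower end of that arm for S100a8 and S100a9, at 0 and 5 reads of S100a8, while the other 6 libraries held between 26.2 and 70.3 normalized reads.

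The day 5 differences were 0.37 log2 for S100a8 (95% interval -0.97 to 1.70), 0.071 for S100a9 (-1.17 to 1.32) and 0.21 for Lcn2 (-0.78 to 1.19), each with a limma adjusted p of 0.998. limma called 0% of genes on day 5, with 470 at an unadjusted p under 0.05, and limma voom called 0, with 659. The sign depended on the replicates used. RTD-1 minus saline was 1.19 log2 for S100a8 and 1.01 for S100a9 in replicates 5 to 8, and -0.45 and -0.87 in replicates 1 to 4, none of which passed (lowest limma adjusted p = 0.657). Without the 3 deeper saline libraries, 1 on each day, S100a8, S100a9 and Lcn2 differed by 0.48, 0.20 and 0.11 log2 on day 1, by 1.44, 1.27 and 1.60 on day 3 and by 0.29, 0.073 and 0.16 on day 5, again without a call.

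Whether the RTD-1 difference itself changed between days was tested as an interaction. From day 1 to day 3 it changed by 0.79 log2 for S100a8, 0.90 for S100a9 and 1.43 for Lcn2, with a lowest limma adjusted p of 0.901, where 0.00766% of genes were called. From day 3 to day 5 it changed by -0.83, -0.93 and -1.25 for the same genes, with a lowest limma adjusted p of 0.756, where 0% were called and 917 genes had an unadjusted p under 0.05. From day 1 to day 5 it changed by -0.037, -0.032 and 0.18, with a lowest limma adjusted p of 0.983, where 0% were called and 627 genes had an unadjusted p under 0.05. limma voom called 0 and 1 genes in these last comparisons.

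**Figure D2:**
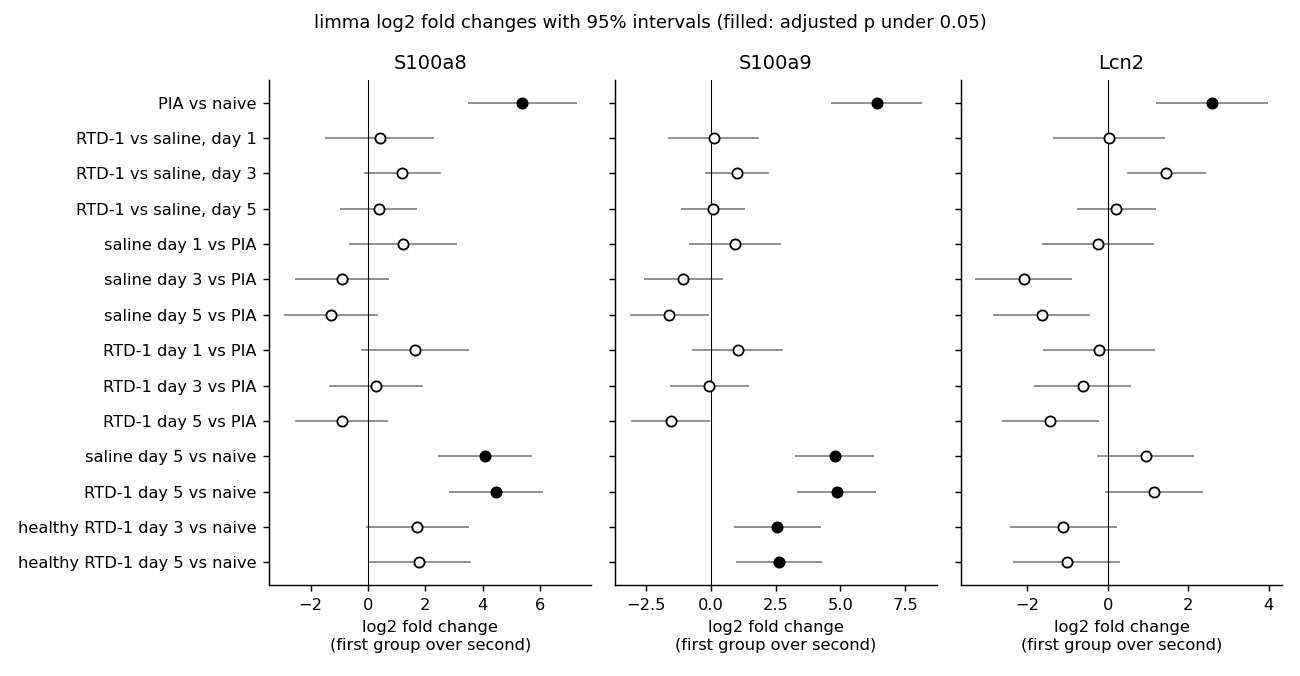
limma log2 fold changes of the first group over the second for S100a8, S100a9 and Lcn2 in 14 comparisons, with 95% intervals; filled points have a Benjamini-Hochberg adjusted p under 0.05 over 13062 genes. The calls are those against naive tissue, and every interval of RTD-1 against saline crosses 0 except that of Lcn2 on day 3, whose adjusted p is 0.387.

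Each arm was also set against untreated PIA, whose 4 libraries both arms share, so the values of the arms are given side by side and the tests above compare the arms. S100a8 averaged 49.1 ± 38.7 normalized reads in untreated PIA (SD, n = 4). With RTD-1 it averaged 131 ± 30.9 after 1 day (SD, n = 4), 56.7 ± 28.3 after 3 days (SD, n = 8) and 37.3 ± 25.7 after 5 days (SD, n = 8). With saline it averaged 97.9 ± 21.0, 38.2 ± 36.0 and 22.4 ± 19.1 on those days. The day 1 means were thus the highest in both arms. S100a9 also had its highest means on day 1, and averaged 314 ± 181 in untreated PIA (SD, n = 4). With RTD-1 it averaged 585 ± 116, 312 ± 204 and 148 ± 91.2 on days 1, 3 and 5 (SD, n = 4, 8 and 8), and with saline 547 ± 116, 195 ± 173 and 118 ± 85.4.

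The highest Lcn2 mean was that of untreated PIA. It averaged 21.9 ± 5.69 normalized reads in untreated PIA (SD, n = 4), then 18.5 ± 4.23, 16.6 ± 12.2 and 8.41 ± 5.62 with RTD-1 on days 1, 3 and 5. With saline it averaged 18.6 ± 5.71, 6.92 ± 6.999 and 8.72 ± 6.85 on those days. None of the 3 genes passed the test against untreated PIA on any day in either arm. For Lcn2 the difference from untreated PIA was -0.23, -0.63 and -1.43 log2 after 1, 3 and 5 days of RTD-1, with limma adjusted p = 1.00, 0.750 and 0.1001. It was -0.25, -2.09 and -1.64 after 1, 3 and 5 days of saline, with limma adjusted p = 0.978, 0.117 and 0.0728.

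For the 3 lowest of those Lcn2 adjusted p-values, a call depended on the processing. limma voom on recovered reads called each of them. Its adjusted p was 0.0253 for RTD-1 on day 5, 0.0470 for saline on day 3 and 0.0130 for saline on day 5. Under other settings the limma adjusted p reached 0.220, 0.190 and 0.199 in the same order. For S100a9 the day 5 difference was -1.55 log2 with RTD-1 (limma adjusted p = 0.162) and -1.62 with saline (limma adjusted p = 0.165). For S100a8 it was -0.92 with RTD-1 (limma adjusted p = 0.470) and -1.29 with saline (limma adjusted p = 0.311). Over the alternatives other than leaving out 1 library, S100a9 ran from -2.44 to -1.29 with RTD-1 and -1.88 to -1.39 with saline. S100a8 ran from -2.11 to -0.48 and from -1.96 to -0.94 in the same order, again without a call. Both lowest RTD-1 values came from replicates 1 to 4, the only numbers in untreated PIA. The S100a8 difference from untreated PIA after 1 day was 1.63 log2 with RTD-1 (95% interval -0.26 to 3.52, limma adjusted p = 1.00) and 1.22 with saline (-0.67 to 3.11, limma adjusted p = 0.889).

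Against untreated PIA the test called 0% of genes after 1 day of RTD-1 (273 at an unadjusted p under 0.05, and 0 by limma voom), 0.00766% after 3 days and 12.7% after 5 days. After saline it called 0% on day 1 (699 at an unadjusted p under 0.05, and 0 by limma voom), 0.0153% on day 3 and 8.37% on day 5. At these shares, 0 of 3 members called is no result about the members.

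On average, day 5 tissue still held more S100a8 and S100a9 than naive tissue. RTD-1 replicate 1 overlapped naive tissue, with 0 reads of S100a8 and 6.83 normalized reads of S100a9, against 10.4 in naive replicate 4. Over naive, S100a8 was 4.46 log2 higher after 5 days of RTD-1 (limma adjusted p = 2.85e-05) and 4.09 higher after 5 days of saline (limma adjusted p = 9.95e-05). Naive S100a8 was at 0 reads, and with a pseudocount of 8 these differences were 2.15 and 1.69, both still calls. S100a9 was 4.85 higher with RTD-1 (limma adjusted p = 1.86e-06) and 4.78 higher with saline (limma adjusted p = 2.12e-06). Lcn2 did not pass, at 1.15 with RTD-1 (limma adjusted p = 0.165) and 0.94 with saline (limma adjusted p = 0.266). Without naive replicate 4 these Lcn2 differences were 1.76 (limma adjusted p = 0.0402, a call) and 1.56 (limma adjusted p = 0.0734). The test called 25.6% of genes in the RTD-1 comparison and 27.1% in the saline comparison. With limma voom the S100a8 and S100a9 calls were lost, at 4.94 and 5.15 log2 with RTD-1 (adjusted p = 0.129 and 0.115) and 4.92 and 5.18 with saline (adjusted p = 0.121 and 0.103).

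Healthy rats given RTD-1 were compared with naive rats. S100a8 had 31 reads in replicate 5 of the 3-day group, 1 to 8 reads in the other 9 healthy RTD-1 libraries and 0 in each naive one. It had 2.41, 0.517, 1.73, 0.839 and 13.5 normalized reads after 3 days and 2.30, 2.31, 2.35, 2.49 and 2.88 after 5 days, where the day 5 values rest on 6 to 8 reads per library. Against the naive limit of 3 reads over the group, the means were at least 5.22-fold higher on day 3 and at least 3.39-fold higher on day 5. Without day 3 replicate 5 the day 3 mean was at least 1.89-fold higher. Neither passed the test, with differences of 1.71 log2 on day 3 (limma adjusted p = 0.211) and 1.79 on day 5 (limma adjusted p = 0.175).

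S100a9 had 17.2, 2.07, 32.4, 24.7 and 61.8 normalized reads after 3 days of RTD-1 in healthy rats, against 4.44, 0, 0.998 and 10.4 in naive rats. After 5 days it had 15.8, 32.03, 11.7, 14.1 and 34.6, all above the naive libraries, while day 3 replicate 2 lay among them. The differences were 2.57 log2 on day 3 (SE 0.830, limma adjusted p = 0.0350) and 2.63 on day 5 (SE 0.830, limma adjusted p = 0.0278), with 11.8% and 13.5% of genes called. These calls depended on the processing. With TMM factors, which bring the median gene shift of 0.30 and 0.34 log2 to 0.033 and 0.040, they were 2.34 and 2.37 with adjusted p = 0.0931 and 0.0936. With a pseudocount of 8 the limma adjusted p was 0.172 and 0.186, and with limma voom it was 0.439 and 0.402. The healthy RTD-1 libraries had factors of 11.1 to 17.5 megareads, against 5.52 to 6.47 in naive libraries, and with reads thinned to the median library the day 3 difference was 2.34 with limma adjusted p = 0.0579.

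Lcn2 averaged lower in healthy RTD-1 than in naive rats and did not pass the test. It had 0.802, 0, 1.73, 0.419 and 1.31 normalized reads after 3 days of RTD-1 and 2.30, 0, 0.391, 1.24 and 1.08 after 5 days, against 0.889, 2.88, 0.998 and 12.5 in naive tissue. The differences were -1.11 log2 on day 3 (limma adjusted p = 0.284) and -1.02 on day 5 (limma adjusted p = 0.307). Without naive replicate 4 they were -0.49 and -0.41. The log2 ratio of Lcn2 to S100a9 averaged -3.50 ± 1.19 for day 3 and -3.49 ± 1.09 for day 5 (SD, n = 5 each), against 0.168 ± 1.43 in naive libraries (SD, n = 4). These differences, -3.67 and -3.65, each had a two-sided exact permutation p = 0.0159, the smallest possible here, and 0.0857 after adjustment over the 12 ratio tests. They rest on 0 to 12 reads of Lcn2 per library, and with a pseudocount of 8 they were -1.78 and -1.68.

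Ordered by mean log2 value, S100a8 and S100a9 shared most of their order. Both were highest after 1 day of RTD-1, then after 1 day of saline, and both ended with day 5 RTD-1, day 5 saline, healthy day 5, healthy day 3 and naive. RTD-1 day 3 and untreated PIA changed places between them, and saline day 3 followed both. For S100a9 the neighbours that differed by more than the larger SD of the pair were saline day 1 over untreated PIA, saline day 5 over healthy day 5 and healthy day 3 over naive. For S100a8 they were RTD-1 day 1 over saline day 1, saline day 1 over RTD-1 day 3, saline day 5 over healthy day 5 and healthy day 3 over naive. Library ranges still overlapped in each of these S100a9 pairs. For S100a8 they overlapped in RTD-1 day 1 over saline day 1, which did not pass the limma test, and in saline day 1 over RTD-1 day 3. The Lcn2 order began with untreated PIA, RTD-1 day 1, saline day 1 and RTD-1 day 3 and ended with naive, healthy day 5 and healthy day 3, and no neighbours in it differed by more than their spread.

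The spread within groups was given against counting error. In untreated PIA the libraries varied far beyond counting error, with a chi-square over its degrees of freedom of 104 for S100a9 and 30.01 for S100a8, where counting error alone gives about 1. For Lcn2 it was 1.41 in untreated PIA, 0.852 after 1 day of RTD-1 and 1.30 after 1 day of saline, near counting error at 7 to 41 reads per library. On days 3 and 5 Lcn2 varied more, between 3.86 and 7.65. In naive tissue the value for Lcn2 was 7.33. Lcn2 had few reads, so depth limits the precision of its values. On days 3 and 5 and in naive tissue the spread between libraries limits it as well.

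Across all 58 libraries S100a8 and S100a9 were closest to each other of all genes tested. Their Pearson r of 0.946 on the log2 scale ranked 1 of 13061 genes from either side. Lcn2 had an r of 0.752 with S100a8 and 0.750 with S100a9, which ranked 113 and 116 in its own list. In the lists of S100a8 and S100a9, Lcn2 ranked only 536 and 586. These values are descriptions, since the libraries share the difference between arthritic and healthy tissue. The genes most like the mean of the 3 members, among 8425 genes that averaged 5 or more on the log2 scale, were ENSRNOG00000036603 (r = 0.960) and ENSRNOG00000005871 (r = 0.9499). ENSRNOG00000036603 had 362 ± 200 normalized reads in untreated PIA and 9.40 ± 10.7 in naive tissue (SD, n = 4 each). ENSRNOG00000005871 had 138 ± 46.8 in untreated PIA and 5.56 ± 3.13 in naive tissue (SD, n = 4 each).

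Within the groups, the members also moved together from library to library. Over the 44 arthritic libraries, with each group's mean removed, S100a8 and S100a9 deviated with Pearson r = 0.910 and Spearman rho = 0.858 (permutation p = 1e-05 each, the smallest 100000 permutations can give, adjusted 1.5e-05 over 3 pairs). Lcn2 and S100a9 had r = 0.627 and rho = 0.712 (permutation p = 1e-05 each, adjusted 1.5e-05). Lcn2 and S100a8 had r = 0.559 and rho = 0.598 (permutation p = 0.00013 and 3e-05, adjusted 0.00013 and 3e-05). Without the 2 libraries farthest from the median on the x axis, r was 0.867, 0.679 and 0.4998 for these pairs. The removal of group means makes such permutations somewhat too narrow, and the p-values somewhat too low.

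Within replicates 1 to 4 the same 3 values of r were 0.978, 0.658 and 0.640 over 28 libraries. Within replicates 5 to 8, present only on days 3 and 5, they were 0.928, 0.495 and 0.386 over 16 libraries, and the values with Lcn2 did not pass (permutation p adjusted 0.0739 and 0.139). Libraries rich in one calprotectin transcript were thus rich in the other in both sets. Whether r with Lcn2 differs between the sets was not tested.

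**Figure D3:**
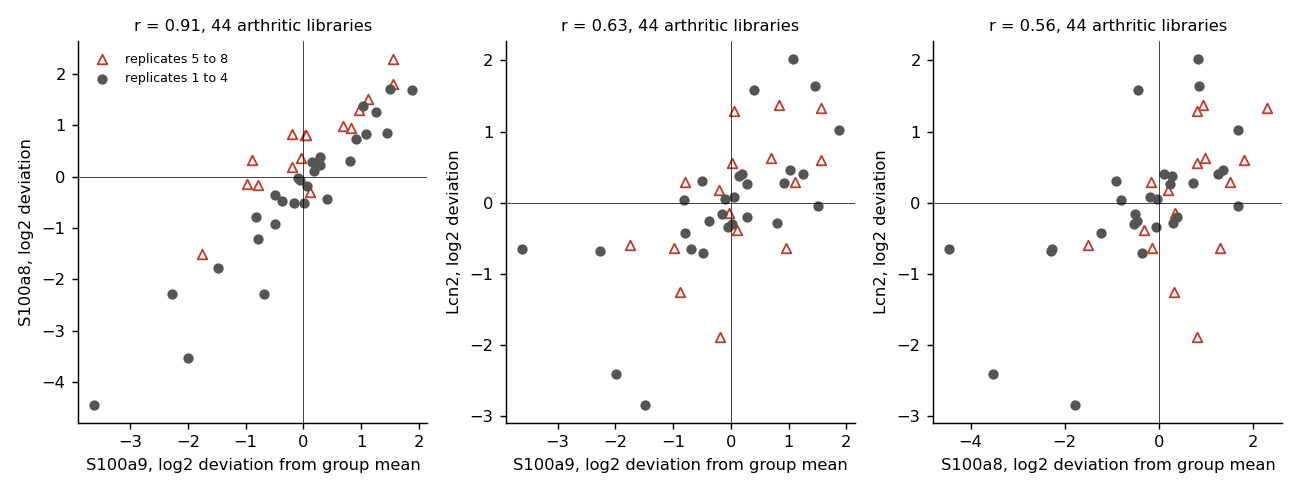
Deviation of each of 44 arthritic libraries from its group mean, log2(normalized reads + 1), for the 3 pairs of genes; triangles are replicates numbered 5 to 8 and circles replicates 1 to 4. S100a8 and S100a9 lie along 1 line (r = 0.910), with triangles above most circles at the same S100a9 deviation, and Lcn2 scatters more widely (r = 0.627 and 0.559).

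The balance between the calprotectin transcripts was followed as the share of S100a8 in the reads of S100a8 and S100a9 together. It is not corrected for transcript length, so it compares libraries and not the 2 genes. In untreated PIA the share was 10.1%, 15.6%, 12.6% and 12.6%. After 1 day it was 18.9%, 17.4%, 17.2% and 19.2% with RTD-1, against 16.6%, 14.8%, 13.2% and 16.4% with saline. Each RTD-1 library lay above each saline library, yet the arms were close, and the exact Clopper-Pearson 95% interval of the pooled reads was 17.0% to 19.8% with RTD-1 and 13.9% to 16.4% with saline, for counting error only. As a log2 ratio of S100a8 to S100a9 the difference was 0.30 (two-sided exact permutation p = 0.0286, the smallest this design allows, adjusted 0.0857 over 12 tests).

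On the later days no such separation was seen. The log2 ratio of S100a8 to S100a9 differed between RTD-1 and saline by 0.20 on day 3 (exact permutation p = 0.643, adjusted 0.772) and 0.30 on day 5 (exact permutation p = 0.237, adjusted 0.501). The log2 ratio of Lcn2 to S100a9 differed by -0.081, 0.45 and 0.14 on days 1, 3 and 5, with exact permutation p = 0.743, 0.250 and 0.845. In healthy RTD-1 rats the S100a8 share ran from 3.28% to 20%, and naive tissue held 0 of 16 reads, whose exact Clopper-Pearson 95% interval reaches 20.6%.

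Replicate numbers went with the S100a8 share on days 3 and 5. The numbers 5 to 8 were set against 1 to 4 after the shares had been seen, so the values are a description and no test is given. With 3 days of saline the share was 27.2%, 22.2%, 21.5% and 21.9% in replicates 5 to 8, against 4.17%, 2.78%, 12.0% and 12.6% in replicates 1 to 4. The 4.17% rests on 3 of 72 reads and the 2.78% on 1 of 36. With 5 days of saline it was 16%, 17.8%, 19.0% and 23.4% in replicates 5 to 8, against 10.6%, 8.74%, 11.1% and 15.5% in replicates 1 to 4. Here the 16% rests on 4 of 25 reads and the 11.1% on 4 of 36. The sets did not overlap in either saline group.

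With 3 days of RTD-1 the share was 27.6%, 12.2%, 22.5% and 19.7% in replicates 5 to 8, against 14.2%, 12.1%, 11.9% and 11.1% in replicates 1 to 4. With 5 days of RTD-1 it was 21.5%, 22.8%, 19.5% and 22.2%, against 0%, 15.6%, 20.5% and 13.5%. The 0% rests on 0 of 8 reads and the 15.6% on 5 of 32. Averaged over the 4 groups, with the same weight for each library whatever its reads, replicates 5 to 8 lay 10.1 percentage points above replicates 1 to 4. S100a9 itself averaged 0.26 log2 higher in replicates 5 to 8, but only the 5-day RTD-1 group was higher, by 1.79. It was lower after 3 days of RTD-1 (-0.54), 3 days of saline (-0.14) and 5 days of saline (-0.092). S100a8 averaged 1.25 higher, from 0.28 after 3 days of RTD-1 to 2.37 after 5 days of RTD-1. The labels name no batch for these numbers, which occur in both arms in equal parts on days 3 and 5. Their part in the differences between arms was not tested beyond the fits within each set. Untreated PIA, naive tissue and the day 1 groups hold only numbers 1 to 4. Comparisons of days 3 and 5 with them are thus not balanced for these numbers.

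**Figure D4:**
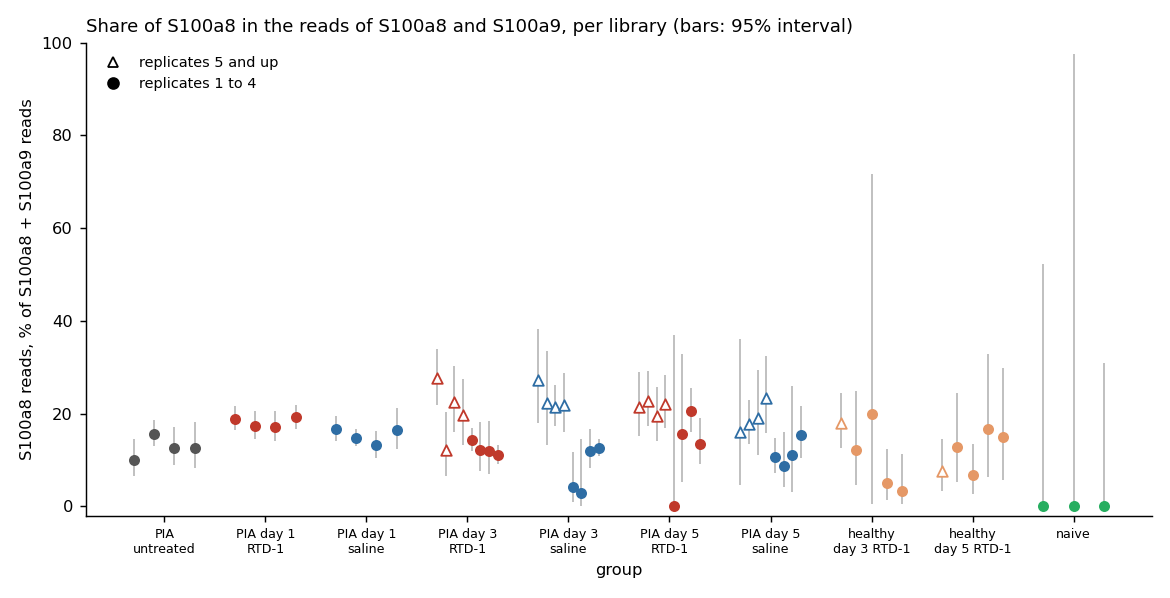
Share of S100a8 in the reads of S100a8 and S100a9, in percent, per library and group, with exact Clopper-Pearson 95% intervals for counting error; triangles are replicates numbered 5 and up, drawn left of replicates 1 to 4. The day 3 and day 5 saline triangles (16% to 27.2%) lie above the circles of their group (2.78% to 15.5%).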

How the data were processed

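Stranded total RNA libraries were read from one end to 75 nt, as the labels' protocols say. The submitters' processing notes name HISAT and DESeq. The genome build and annotation behind the deposited table are not stated in any source used here. Its deposited values are log2 values: whole reads were divided by a factor of the library before the logarithm, and 0.9 read stands in for 0 reads. Undoing this gave whole reads for 100% of values (relative tolerance 0.001). The unnamed row, 0.000384% to 0.0137% of reads, stayed out. Factors lay between 1.71 and 17.5 megareads, with a median of 5.75 to which normalized reads are scaled.

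A gene was tested if 4 or more libraries held 10 or more normalized reads of it, as 13062 did. limma 3.58.1 (R 4.3.3) fitted the 10 group means together on log2(normalized reads + 1) with trended, robust moderation. Two-sided p-values were adjusted by Benjamini-Hochberg, and a call is an adjusted p under 0.05. The test had been chosen for linear values, so the logarithm was undone first. Ratios within libraries and correlations were tested by permutation (SciPy 1.17.1). The limma script was tested on simulated data. Any 2 libraries of a group differed beyond sampling noise, and p-values measure only the spread between libraries, which may be technical. Intervals and limits from reads cover counting error only.

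The members and lists were chosen with earlier results of these data known. Named genes are the 3 members and the 2 genes most like them by Pearson r over all libraries. Other gene lists and the cell markers were not analysed here. Alternatives were other pseudocounts and filters, TMM factors, scaling to reads in genes, limma voom, only the groups compared, a replicate block, replicates 1 to 4 or 5 to 8 only, each library left out and, chosen after seeing the data, thinned reads.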

Additional observations from a re-analysis of the deposited data

Results flagged for a closer look

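In 4 of 38 group checks 1 library stood apart from the rest of its group. The checks used normalized reads without a logarithm, and shares in percent. High libraries stand apart more readily on such scales, so no rate by chance is given. S100a8 had 13.5 normalized reads in replicate 5 of the healthy rats given RTD-1 for 3 days, with 2.41 in the nearest library. Lcn2 had 44.3 normalized reads in replicate 4 of the 3-day RTD-1 group, with 17.0 in the nearest, and 20.6 in replicate 7 of the 5-day RTD-1 group, with 11.9 in the nearest. The S100a8 share of S100a8 and S100a9 reads was 0% in replicate 1 of the 5-day RTD-1 group, which rested on 0 of 8 reads, with 13.5% in the nearest.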

How the results depend on the processing

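Calls of the 3 members between PIA and naive held under each alternative that gave a value, while Lcn2 had none with a filter of 50 normalized reads. Of the other settings 598 values kept their direction and side of the threshold, 25 changed sign, 7 became calls and 18 were lost. Unless given, the cause of a change was not tested.

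The S100a9 calls in healthy RTD-1 rats over naive were lost most often. Their highest adjusted p was 0.439 on day 3 and 0.402 on day 5, both by limma voom. On day 3 the difference was 2.34 with TMM factors, 2.96 with voom, 2.57 with only these groups in the fit, 1.39 with pseudocount 8, 2.34 with thinned reads, 2.15 with replicates 1 to 4 and 2.36 scaled to reads in genes. On day 5 it was 2.37 with TMM, 3.02 with voom, 1.31 with pseudocount 8, 2.44 with replicates 1 to 4 and 2.36 scaled to reads in genes. The number of genes called there was 1546 on day 3 and 1764 on day 5, against 715 and 652 with TMM. Leaving out 1 library gave 1.99 to 3.24 on day 3, lost without healthy replicates 1, 3, 4 or 5 or naive replicates 2 or 3, and 2.05 to 3.22 on day 5, lost without healthy replicates 2 or 5 or naive replicates 2 or 3. The S100a8 day 5 difference became a call with only these groups in the fit (1.79).

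With voom the day 5 calls over naive were lost for S100a8 (4.94 RTD-1, 4.92 saline) and S100a9 (5.15 RTD-1, 5.18 saline). Against untreated PIA Lcn2 became a call for RTD-1 day 5 with voom (-1.59), only these groups (-1.43) and pseudocount 8 (-0.91), for saline day 3 with voom (-2.25), and for saline day 5 with voom (-1.94) and pseudocount 8 (-0.93). Without saline replicate 2 the last was also called (range without 1 library -1.87 to -1.23), and Lcn2 in RTD-1 day 5 over naive was called without naive replicate 4 (0.82 to 1.76).

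The differences that changed sign were not calls, and not all of them were near 0. RTD-1 minus saline was -0.13 (TMM), -0.10 (voom) and -0.068 (reads in genes) for Lcn2 on day 1, -0.065 (TMM) for S100a9 on day 1, -0.029 (voom) and -0.87 (replicates 1 to 4) for S100a9 on day 5, and -0.45 (replicates 1 to 4) for S100a8 on day 5. S100a9 in RTD-1 day 3 over PIA was 0.087 (TMM), 0.20 (replicates 1 to 4) and 0.074 (reads in genes). The change of the RTD-1 difference between day 1 and day 5 was 0.15 (TMM), 0.087 (pseudocount 8) and 0.053 (reads in genes) for S100a8, and 0.18 (TMM), 0.042 (pseudocount 8), 0.042 (thinned) and 0.082 (reads in genes) for S100a9. Between day 3 and day 5 it was 0.67 for S100a8 and 0.21 for S100a9 in replicates 5 to 8, against -0.83 and -0.93 in all libraries. The Lcn2 to S100a9 ratio was -0.22 on day 3 and -0.13 on day 5 with pseudocount 8, and -0.68 on day 5 in replicates 5 to 8. The S100a8 to S100a9 ratio on day 3 was -0.16 with pseudocount 8 and -0.29 in replicates 5 to 8. Correlations with Lcn2 were lost in replicates 5 to 8 (0.386 with S100a8 and 0.495 with S100a9).

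Leaving out 1 library, RTD-1 minus saline ran from -0.21 to 0.15 (Lcn2 day 1), -0.20 to 0.43 (Lcn2 day 5), -0.059 to 0.23 (S100a9 day 1) and -0.18 to 0.59 (S100a9 day 5), and S100a9 in RTD-1 day 3 over PIA from -0.34 to 0.27. The change between day 1 and day 5 ran from -0.22 to 0.42 (Lcn2), -0.29 to 0.60 (S100a8) and -0.28 to 0.49 (S100a9). The Lcn2 to S100a9 ratio ran from -0.16 to 0.079 on day 1 and -0.29 to 0.36 on day 5, and the S100a8 to S100a9 ratio on day 3 from -0.032 to 0.37.

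With a replicate block, used though the numbers do not pair the samples (same-numbered deviations correlated between -0.10 and 0.28), no call of a member changed, and S100a8 in RTD-1 day 3 over PIA turned to -0.38. Depth limits Lcn2 and the healthy and naive values, which rest on few reads.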
